A study of Mus musculus with 24 samples.

Results

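The potassium channel genes were taken as every gene of the deposited table whose symbol begins with Kcn and a further letter, except Kcnj8, which gave 93 of 21965 genes. Of these, 92 had at least 1 count in some library, Kcns2 had none, and 51 passed the expression filter and were tested among 14246 genes. The symbols cover pore-forming subunits and also accessory proteins that form no pore: 40 voltage-gated pore subunits (22 tested), 13 accessory subunits and regulators of voltage-gated channels (6 tested), 12 calcium- and sodium-activated channels with their subunits (10 tested), 14 inward rectifiers (7 tested) and 14 two-pore-domain channels (6 tested). Genes were put in these role groups by symbol, and Kcnu1 stands with the calcium- and sodium-activated channels for that reason alone. PolyA-selected RNA of the gastrocnemius, a calf muscle of the mouse, was sequenced in 6 groups of 4 libraries: a control group, and muscle taken 1, 3, 5, 7 or 14 days after denervation, the loss of its motor nerve. The labels give no strain, sex, age or method of denervation, and do not say whether the control muscle had a sham operation or whether a group's 4 libraries are from different mice. The p-values rest on the spread between libraries, and that spread may be technical. The tissue label names gastrocnemius, but a protocol text speaks of dorsal root ganglion neurons. Markers of muscle fibres summed to 51200 to 157000 TPM per library and 8 sensory neuron markers to 2.26 to 7.75 TPM, with Scn10a among those at 0 in control.

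Potassium channels let potassium ions leave or enter a cell and so set the resting voltage of the muscle fibre membrane and end each action potential. In innervated fibres, inward rectifiers hold the resting voltage and return potassium from the transverse tubules, ATP-sensitive channels link excitability to the energy state, and voltage-gated channels repolarise the membrane. After the nerve is lost, fibres depolarise, spread acetylcholine receptors over their surface and take up apamin-sensitive small-conductance calcium-activated channels, which innervated adult fibres hold at low levels and of which Kcnn3 encodes a subunit.

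Levels are given as CPM, counts divided by the TMM-scaled library size (TMM centres the bulk of genes between libraries), or, where genes are compared with each other, as TPM, the deposited per-length measure. Library totals ran from 16082839 to 20696876 counts, and the common biological coefficient of variation was 0.0389. Differences are log2 fold changes of the edgeR quasi-likelihood fit with their standard errors, and genes described as having risen, fallen or changed had a Benjamini-Hochberg adjusted p below 0.05 over all 14246 genes. Had the libraries been scaled by their totals only, the median log2 difference of all genes from control would have been 0.614 at day 1, 0.344 at day 3, 0.674 at day 5, 0.814 at day 7 and 0.778 at day 14. Every change is therefore relative to the bulk of genes. All 5 days share 1 set of 4 control libraries, and a value peculiar to control would show at each of them. In these bulk libraries fewer cells of a type and less RNA per cell cannot be told apart.

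Promoter windows are shown for 3 genes that came to stand far above control, Kcnn3, Kcnq5 and Kcnk5, and for 2 that fell, Kcnj2 and Kcna7, because myogenic factors such as the product of Myog, which is high in denervated muscle, bind the E-box. Each window holds 250 bases before and 50 bases after a RefSeq transcription start (GRCm38.p6), in lower case, with matches to the E-box CANNTG on either strand in capitals. The windows lie at chr3:89519914-89520213 (plus strand, Kcnn3), chr1:21961893-21962192 (minus strand, Kcnq5), chr14:20181733-20182032 (minus strand, Kcnk5), chr11:111065914-111066213 (plus strand, Kcnj2) and chr7:45405710-45406009 (plus strand, Kcna7).
Kcnn3: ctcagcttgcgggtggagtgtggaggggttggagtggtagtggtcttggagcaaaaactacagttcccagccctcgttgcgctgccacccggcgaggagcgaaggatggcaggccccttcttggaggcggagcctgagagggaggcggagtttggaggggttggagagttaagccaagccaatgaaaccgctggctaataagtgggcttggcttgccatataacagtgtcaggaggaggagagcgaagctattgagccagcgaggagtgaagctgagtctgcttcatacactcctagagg
Kcnq5: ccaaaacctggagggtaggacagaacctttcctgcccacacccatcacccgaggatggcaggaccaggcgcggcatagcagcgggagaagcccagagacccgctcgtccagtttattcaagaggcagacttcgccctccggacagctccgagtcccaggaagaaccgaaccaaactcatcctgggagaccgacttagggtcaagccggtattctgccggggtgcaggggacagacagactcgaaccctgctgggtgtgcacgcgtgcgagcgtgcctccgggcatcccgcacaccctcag
Kcnk5: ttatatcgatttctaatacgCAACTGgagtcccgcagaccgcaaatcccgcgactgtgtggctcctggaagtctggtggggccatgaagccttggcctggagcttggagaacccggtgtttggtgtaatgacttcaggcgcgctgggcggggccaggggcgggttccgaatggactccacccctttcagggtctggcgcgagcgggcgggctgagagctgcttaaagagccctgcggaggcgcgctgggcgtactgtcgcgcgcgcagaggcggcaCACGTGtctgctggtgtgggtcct
Kcnj2: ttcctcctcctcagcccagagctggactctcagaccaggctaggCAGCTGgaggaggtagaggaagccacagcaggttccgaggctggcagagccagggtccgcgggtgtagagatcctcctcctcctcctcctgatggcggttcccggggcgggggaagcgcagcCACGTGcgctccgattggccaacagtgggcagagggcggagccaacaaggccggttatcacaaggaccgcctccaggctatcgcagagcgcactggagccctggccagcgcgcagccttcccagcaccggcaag
Kcna7: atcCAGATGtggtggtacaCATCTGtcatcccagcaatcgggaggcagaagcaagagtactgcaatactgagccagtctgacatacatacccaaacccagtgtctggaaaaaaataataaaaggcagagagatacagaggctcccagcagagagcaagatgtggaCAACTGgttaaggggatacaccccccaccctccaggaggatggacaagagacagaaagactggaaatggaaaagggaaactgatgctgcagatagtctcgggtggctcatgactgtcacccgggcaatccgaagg

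The Kcnn3 and Kcnq5 windows held no CANNTG match, Kcnk5 held 2 (first base at -230 and 27 from the start), Kcnj2 held 2 (at -206 and -84) and Kcna7 held 3 (at -247, -231 and -85). The match at -206 in Kcnj2 is also the only CAGCTG, 1 form of the same motif, among these 5 windows. Of all 32851 RefSeq windows of this length 72.3% held a CANNTG match, as did 75.9% of the 54 windows of tested members. The shares for CAGCTG were 16.3% and 31.5%. RefSeq windows were found for 35 of the 51 tested members. Of windows not shown, another for Kcnq5 (chr1:21962601-21962900) held no CANNTG match. Those of Kcnc1 and Kcnj12, which also fell, held 1 and 2. The Kcna7 window lies inside the longer GENCODE gene model. A match is a description of the letters and not a binding site.

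Across the 5 days, 3 of the 51 tested genes were above control at every day (Kcnab2, Kcne4 and Kcnk13), and 16 were below it at every day. With library totals alone in place of TMM these numbers were 5 and 3. A further 12 were above control on some day and below it on another, and Kcnd3 passed at none. Such patterns were not counted over all genes, so no share of all genes can be set beside these numbers. Kcnd3 rose at day 5 with library totals alone, by log2 1.42. At day 1, 41 changed (74.3% of all genes tested did), 17 higher (38.1% of all genes) and 24 lower (36.2%), with a median log2 of -0.41 against 0.03 over all genes. Day 3 had 32 changes (70.2% of all genes), of which 5 were higher (34.5%) and 27 lower (35.7%), with medians of -0.66 and -0.03. By day 5, 38 had changed (74.3% of all genes), 15 higher (38.5%) and 23 lower (35.8%), with medians of -0.26 and 0.03. The counts were 37 at day 7 (76.9% of all genes), 14 higher (40.2%) and 23 lower (36.7%), with medians of -0.51 and 0.05, and 36 at day 14 (74.4%), 13 higher (39.2%) and 23 lower (35.3%), with medians of -0.47 and 0.06. The changed members were 80.4%, 62.7%, 74.5%, 72.5% and 70.6% of those tested at the 5 days, near the shares of all genes, and lower calls outnumbered higher ones at every day under TMM. With library totals alone, higher and lower calls numbered 24 and 18 at day 1, 10 and 21 at day 3, and 22 and 11 at day 5. They numbered 19 and 13 at day 7 and 19 and 11 at day 14. Of all 14246 genes, this scaling gave 10050 higher and 1899 lower at day 1, and 7823 and 2595 at day 3. The all-gene counts were 10291 and 1680 at day 5, 10600 and 1732 at day 7, and 10604 and 1670 at day 14. The member medians of days 1, 5, 7 and 14 turned positive (0.17, 0.38, 0.25 and 0.25). They stayed below the all-gene medians of the same scaling (0.614, 0.674, 0.814 and 0.778). Of the single differences from control, 15 changed direction with library totals alone, 34 others passed no longer and 21 newly passed. In the omnibus test over the 6 groups 47 of 51 passed (96.7% of all genes did), and Kcnd1, Kcnd3, Kcne3 and Kcng2 did not. A gene with few counts that passed the filter only through the groups where it is high had to differ between groups.

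**Figure D1:**
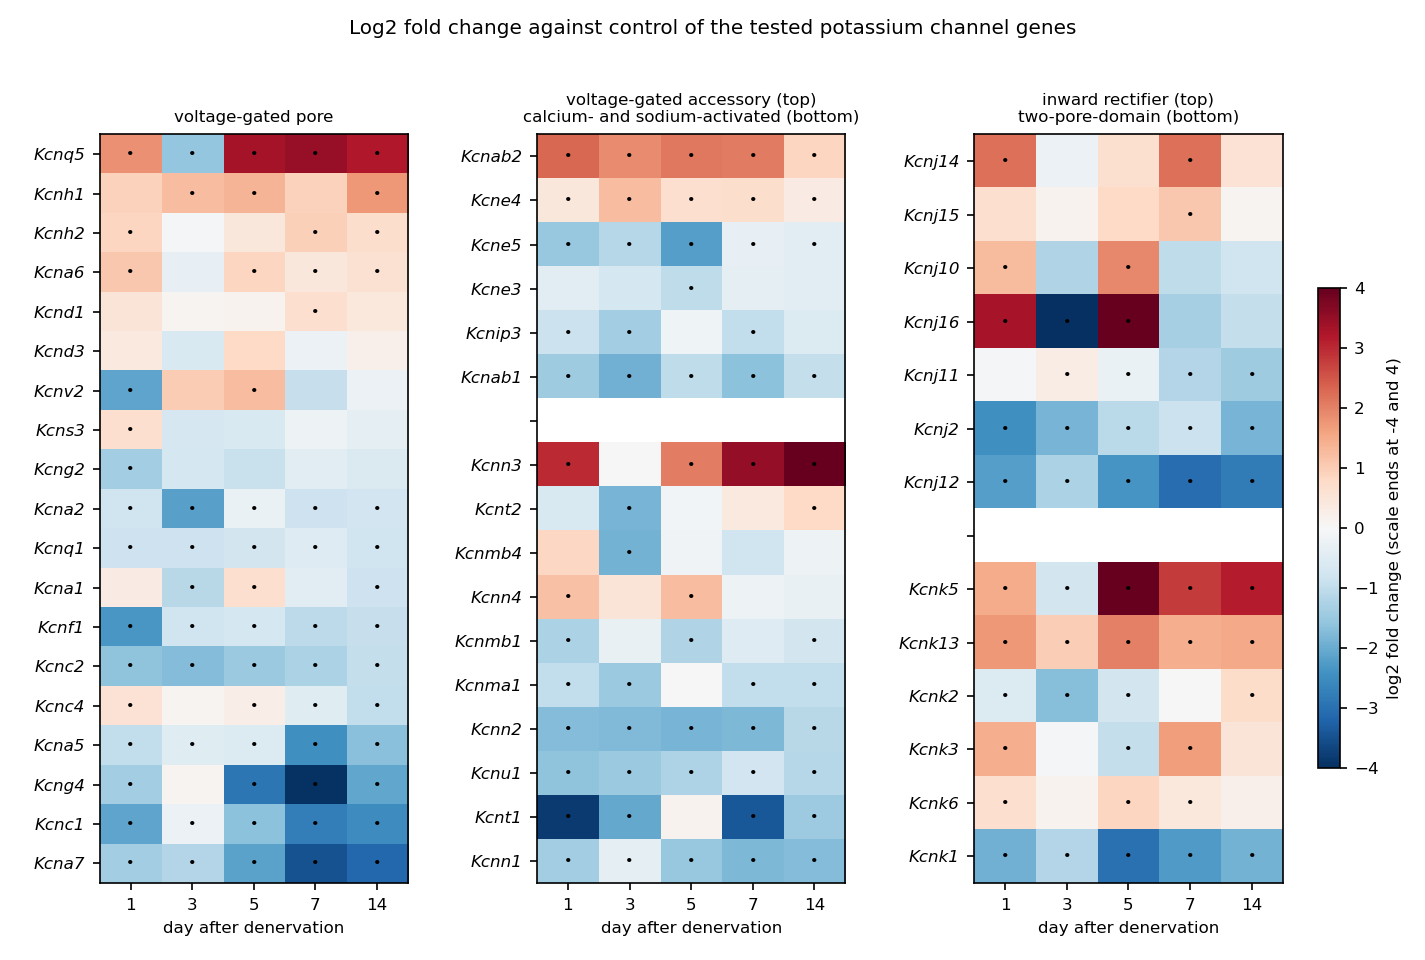
Log2 fold change against control of 48 of the 51 tested potassium channel genes (rows, by role) at each day (columns), with a dot where the adjusted p was below 0.05; colours are capped at 4. Kcnn3, Kcnq5 and Kcnk5 stand out in red except at day 3, and Kcna7, Kcng4, Kcnc1 and Kcnj12 darken in blue towards day 7.

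**Figure D2:**
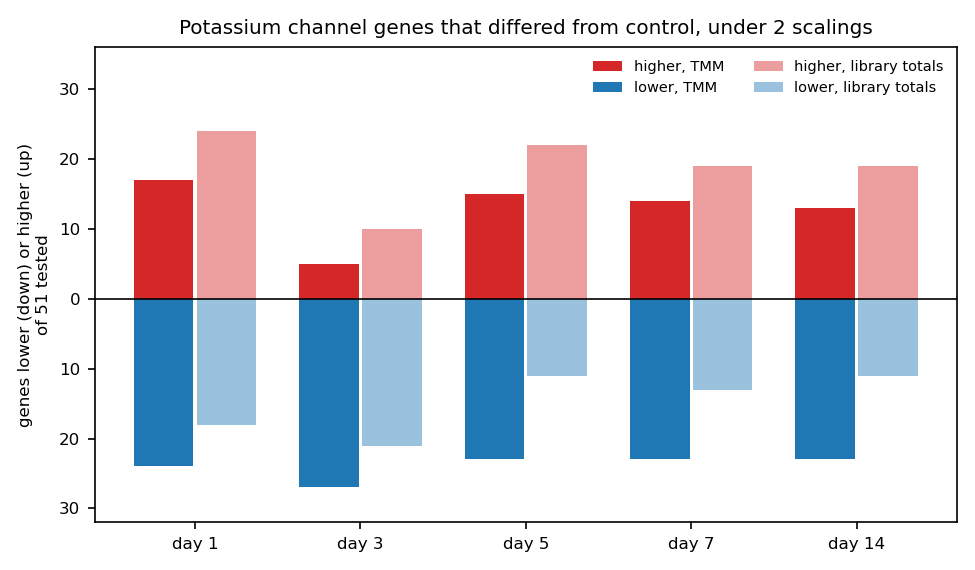
Number of the 51 tested genes above control (upward bars) or below it (downward bars) at each day, with TMM scaling (dark) and with library totals alone (pale). The balance moves from 17 higher and 24 lower to 24 higher and 18 lower at day 1, and day 3 has the fewest higher calls with either scaling. Over all 14246 genes the day 1 counts, not drawn here, move from 5431 higher and 5157 lower to 10050 and 1899.

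Among the calcium-activated channels, Kcnn3, the small-conductance channel SK3 (ENSMUSG00000000794, GRCm38 chromosome 3, 89520164 to 89675132, plus strand, GENCODE M21), rose on 4 of the 5 days and by day 14 had the highest mean TPM of all members. It stood at 2.48, 2.58, 1.61 and 2.1 CPM in the 4 control libraries, 14.9, 16.4, 17.4 and 20.5 at day 1 and 1.63, 2.48, 2.23 and 2.45 at day 3. The later libraries had 10.6, 8.33, 7.28 and 9.71 CPM at day 5, 23.6, 23.3, 28.4 and 26.3 at day 7 and 40, 42.4, 43.1 and 39 at day 14. All libraries of days 1, 5, 7 and 14 lay above all control libraries, whereas day 3 overlapped control. Kcnn3 rose 7.87-fold at day 1 (log2 2.98 ± 0.15, adjusted p = 5.6e-23) and 18.8-fold at day 14 (log2 4.23 ± 0.13, adjusted p = 6.7e-31), and did not pass at day 3 (log2 0.01 ± 0.22, adjusted p = 0.96). Between neighbouring times it fell from day 1 to day 3 (log2 -2.96 ± 0.13), then rose at each step, from day 3 to day 5 (2.02 ± 0.15), to day 7 (1.5 ± 0.096) and to day 14 (0.7 ± 0.081).

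The other members of this family moved the other way or briefly. Kcnn1, the small-conductance channel SK1, was at 31, 26.7, 22.3 and 26.3 CPM in control, 10.5, 9.26, 11 and 9.86 at day 1 and 22.1, 20.9, 21.7 and 16.4 at day 3. Later, Kcnn1 stood at 9.47, 8.87, 10 and 9 CPM at day 5, 8.57, 7.25, 7.09 and 7.82 at day 7 and 9.07, 7.92, 7.33 and 7.68 at day 14. It fell at every day, least at day 3 (log2 -0.39 ± 0.09), where every library still lay below every control library, and most at day 7 (log2 -1.79 ± 0.098). The day 3 value was -0.01 (adjusted p = 0.92) with library totals alone. Kcnn1 TPM was 16.2 ± 2.3 in control and 16.7 ± 6 at day 3 (SD, n = 4), with overlapping libraries. Kcnn2, of the same family, also fell at every day (log2 -1.75 ± 0.46 at day 1 and -1.1 ± 0.42 at day 14), from a control level of only 1.15 CPM, and its day 14 call ended without control replicate 4 (-0.98), day 14 replicate 2 (-0.96) or day 14 replicate 4 (-0.98), and with library totals alone (-0.39). Kcnn3 made up 4.91 ± 0.79% of the summed TPM of the 4 Kcnn genes in control (SD, n = 4), 48.4 ± 3.1% at day 1, 6.65 ± 2.5% at day 3, 35.4 ± 6.8% at day 5, 66.8 ± 5.1% at day 7 and 76.5 ± 2.9% at day 14. The summed TPM of the family was 18.5 ± 2.2 in control and 38.1 ± 2.8 at day 14.

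Kcnn4 encodes the intermediate-conductance channel of lymphocytes, macrophages and red cells. It was at 1.8, 1.25, 1.12 and 2.02 CPM in control, 3.23, 4.43, 2.6 and 3.72 at day 1 and 2.07, 2.59, 2.23 and 2.01 at day 3. Later, Kcnn4 stood at 3.05, 3.42, 4.8 and 3.29 CPM at day 5, 1.64, 1.7, 1.07 and 0.931 at day 7 and 0.795, 1.37, 1.35 and 1.46 at day 14. It rose at days 1 and 5 (log2 1.17 ± 0.25 and 1.23 ± 0.24), where all libraries lay above control, and did not pass at the other days. Kcnn4 rose at day 3 too with library totals alone (0.9, adjusted p = 0.002). Kcna3, the voltage-gated channel Kv1.3 of T cells, did not pass the filter and was not tested: it had 0 counts in every control library (a 0 allows up to 3 counts, for counting error only), 9, 11, 7 and 9 counts at day 1, 2, 9, 0 and 0 at day 3, 7, 9, 14 and 25 at day 5, 2, 4, 2 and 1 at day 7, and 2, 2, 0 and 1 at day 14. Each library of days 1 and 5 had more Kcna3 counts than any library of control, day 7 or day 14, and 1 day 3 library reached 9. The 9 lymphocyte markers summed to 1.95 to 2.75 TPM in control, 141 to 150 at day 1, 5.19 to 6.27 at day 3, 186 to 199 at day 5, 13.3 to 16.9 at day 7 and 9 to 10.2 at day 14, none at 0 in a whole group, and all 9 rose at days 1 and 5. Their part in these results was not tested.

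Kcnma1, the pore subunit of the large-conductance channel BK, which opens with calcium and voltage together, fell on every day but day 5. Its libraries had 30.6, 32.8, 29.3 and 36.3 CPM in control, 17.4, 15.8, 14.2 and 18.4 at day 1 and 10.6, 12.3, 9.99 and 12.6 at day 3. Later, Kcnma1 stood at 30.2, 32.6, 33.1 and 33 CPM at day 5, 16.3, 17.3, 14.2 and 17 at day 7 and 15.4, 16.1, 15.7 and 17.5 at day 14. Day 5 overlapped control and the other days lay below it. The fall was largest at day 3 (log2 -1.5 ± 0.086) and close to -1 ± 0.08 at day 14, while day 5 stood at 0 ± 0.075 (adjusted p = 0.99), or at 0.64 (adjusted p = 2e-10) with library totals alone. Of the BK accessory subunits, Kcnmb1, known from smooth muscle, fell at days 1, 5 and 14 (log2 -1.28 ± 0.34, -1.21 ± 0.34 and -0.75 ± 0.32), and Kcnmb4 fell at day 3 (-1.9 ± 0.74), a call that ended without day 3 replicate 2 (-1.46). Library totals alone ended these calls of both subunits (-0.7, -0.57 and -0.04 for Kcnmb1, -1.53 for Kcnmb4). That scaling gave Kcnmb4 a rise at day 1 (1.41). The sodium-activated channels were scarce. Kcnt2 was at 1.11, 1, 1.04 and 1.34 CPM in control, 0.877, 0.443, 0.663 and 0.916 at day 1 and 0.188, 0.324, 0.509 and 0.189 at day 3. Later, Kcnt2 stood at 1.31, 0.641, 1.16 and 1.03 CPM at day 5, 1.59, 1.32, 1.63 and 1.35 at day 7 and 1.8, 2.73, 2.03 and 1.24 at day 14. Its day 3 libraries lay below all control libraries (log2 -1.87 ± 0.41), day 14 overlapped control, and the rise at day 14 (0.8 ± 0.31) ended without day 14 replicate 2 (0.59). Kcnt2 rose at day 7 too with library totals alone (1.15). Kcnt1 held 22 counts over the control group and 2 at day 1, a ratio of 17.8 (95% counting interval 4.38 to 156) for control over day 1. Its fall at day 7 (log2 -3.4 ± 0.79, from 3 counts) was -4.29 without day 7 replicate 1. Kcnu1, known from sperm, was placed in this group by its symbol and not as a sodium-activated channel. It fell at all 5 days, from log2 -1.61 ± 0.34 at day 1 to -0.78 ± 0.31 at day 7. The day 7 call of Kcnu1 ended without day 7 replicate 2 (-0.69) or replicate 4 (-0.59). With library totals alone Kcnu1 did not pass at day 5 (-0.58, adjusted p = 0.094), day 7 (-0.02, adjusted p = 0.96) or day 14 (-0.42, adjusted p = 0.21).

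**Figure D3:**
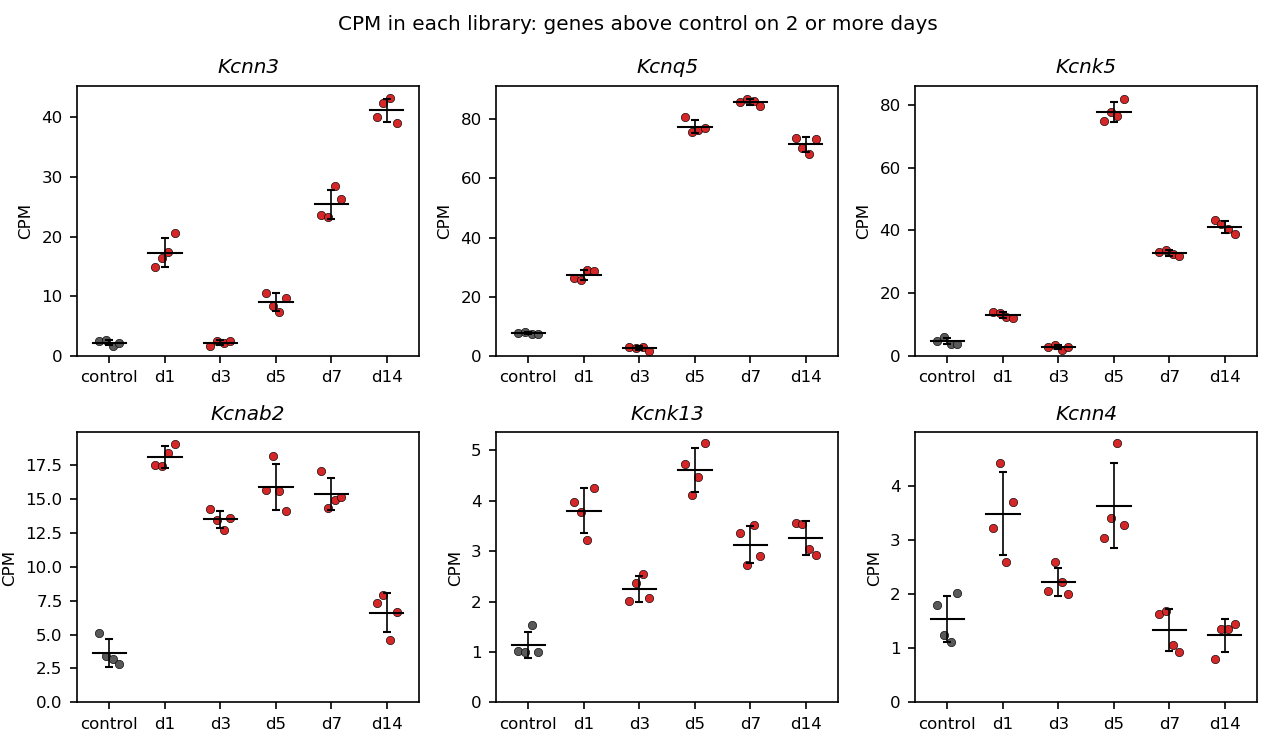
CPM of 6 genes in each of the 24 libraries (points, 4 per group), with the mean (line) and SD (bar). Kcnn3, Kcnq5 and Kcnk5 are high at days 1, 5, 7 and 14 and low at day 3, Kcnab2 and Kcnk13 are above control at all days, and Kcnn4 is raised at days 1 and 5.

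Of the 22 voltage-gated pore subunits tested, 6 rose and 11 fell at day 1 (38.1% and 36.2% of all genes), 1 and 11 at day 3 (34.5% and 35.7%), 6 and 10 at day 5 (38.5% and 35.8%), 5 and 11 at day 7 (40.2% and 36.7%), and 6 and 11 at day 14 (39.2% and 35.3%). Kcnq5, the Kv7.5 channel, which opens slowly near the resting voltage and restrains firing (ENSMUSG00000028033, chromosome 1, 21398403 to 21961942, minus strand), showed the largest rise among them. It fell outside the rule for genes given in every library and was added after its values were seen. Its levels were 7.71, 8.17, 7.47 and 7.39 CPM in control, 26.2, 25.5, 29 and 28.6 at day 1 and 2.94, 2.75, 3.06 and 1.7 at day 3, then 80.8, 75.7, 76.4 and 77 at day 5, 85.8, 86.9, 86 and 84.4 at day 7 and 73.8, 70.4, 68.3 and 73.3 at day 14. The day 3 libraries lay below all control libraries and those of the other days above. Kcnq5 rose 3.55-fold at day 1 (log2 1.83 ± 0.077), fell 2.93-fold at day 3 (-1.55 ± 0.12, adjusted p = 3.1e-15), and rose 10.1-fold, 11.2-fold and 9.28-fold at days 5, 7 and 14 (3.48 ± 0.066 at day 7, adjusted p = 9.7e-40). From day 3 to day 5 it differed by log2 4.88 ± 0.076. Its exons share bases with Gm26580 on the opposite strand, and the use of read strand is not given in the sources used here.

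Kcnq1, of the same family, fell at every day (log2 -0.82 ± 0.22 at day 1), though at day 7 (-0.51 ± 0.22) it stood at 0.25 with library totals alone and the call also ended without control replicate 1 (-0.47), control replicate 2 (-0.32) or day 7 replicate 2 (-0.42). With library totals alone Kcnq1 passed on no other day either, at -0.24 (adjusted p = 0.31), -0.44 (adjusted p = 0.078), -0.08 (adjusted p = 0.73) and -0.09 (adjusted p = 0.7) at days 1, 3, 5 and 14. Its exons share bases with Kcnq1ot1 on the opposite strand. Kcnq5 held 8.88 ± 0.81% of the summed TPM of the 5 Kcnq genes in control, 42.7 ± 1.5% at day 1, 4.97 ± 0.92% at day 3, 70.7 ± 2.1% at day 5, 73.7 ± 1.4% at day 7 and 58.6 ± 1.2% at day 14, and their sum went from 16.5 ± 0.66 TPM in control to 46.5 ± 0.92 at day 7.

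In the Shaker family, Kcna7, Kv1.7, a channel found in skeletal muscle and heart (ENSMUSG00000038201, chromosome 7, 45405653 to 45409763, plus strand), fell furthest. Its libraries held 71.8, 72.1, 77.6 and 80.2 CPM in control, 29.5, 29.4, 29.1 and 28.2 at day 1 and 30.5, 31.8, 33 and 38 at day 3. Later, Kcna7 stood at 16.8, 18.1, 16.1 and 17.8 CPM at day 5, 6.35, 6.69, 6.42 and 7.56 at day 7 and 9.22, 8.96, 8.06 and 7.79 at day 14. No library of any day reached the control range. The fall was 2.6-fold at day 1 (log2 -1.38 ± 0.061) and 11.2-fold at day 7 (-3.48 ± 0.073, adjusted p = 7.9e-38). In TPM Kcna7 was the second most abundant member in control (41.3 TPM) and made up 72.8 ± 1.4% of the 8 Kcna genes there and 43.1 ± 3.5% at day 14. The 6 skeletal muscle fibre markers, none of them at 0 in any group, all fell at every day as well. They summed to 155000 to 157000 TPM in control, 101000 to 102000 at day 1, 109000 to 111000 at day 3, 93300 to 94800 at day 5, 60400 to 60800 at day 7 and 51200 to 51800 at day 14. Their part in the falls of Kcna7, Kcnj2, Kcnj11 and Kcnj12 was not tested. Kcna5, Kv1.5, fell at every day as well, most at day 7 (log2 -2.45 ± 0.1), and at day 5 (-0.54 ± 0.086) stood at 0.11 with library totals alone, which also ended the day 3 call (-0.09). Kcna2, a channel of myelinated axons and neurons, fell most at day 3 (-2.17 ± 0.15); its day 5 value of -0.27 ± 0.12 was 0.37 with library totals alone and passed no longer without control replicate 2 (-0.25), 3 (-0.27) or 4 (-0.27) or day 5 replicate 2 (-0.21) or 4 (-0.25). Library totals alone also ended the Kcna2 calls of days 1, 7 and 14 (-0.21, -0.07 and -0.05). Kcna1, another axonal channel, fell at days 3 and 14 (-1.1 ± 0.23 and -0.83 ± 0.22) and rose at day 5 (0.67 ± 0.19), and the day 14 value was -0.11 with library totals alone. Kcna1 rose at day 1 too under that scaling (0.92). Kcna6 rose at days 1, 5, 7 and 14 (1.08 ± 0.18 at day 1), and its day 7 value (0.44 ± 0.19) passed no longer without control replicate 1 (0.37), control replicate 2 (0.36), day 7 replicate 3 (0.43) or day 7 replicate 4 (0.37). The 6 myelinating Schwann cell markers, none of them at 0 in any group, summed to 354 to 382 TPM in control, 233 to 258 at day 1, 183 to 203 at day 3, 110 to 125 at day 5, 307 to 327 at day 7 and 98.5 to 104 at day 14, and their part in the values of Kcna1 and Kcna2 was not tested.

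The Shaw channels, which open and close fast and shorten the action potential, split. Kcnc1, Kv3.1 (ENSMUSG00000058975, chromosome 7, 46396497 to 46438704, plus strand), was at 34.5, 32.2, 30.6 and 31.8 CPM in control, 6.6, 7.7, 6.58 and 9.21 at day 1 and 28.9, 27.3, 25.6 and 28.2 at day 3. Later, Kcnc1 stood at 12.1, 9.51, 9.76 and 9.82 CPM at day 5, 6.45, 3.72, 4.59 and 3.98 at day 7 and 6.26, 4.67, 5.98 and 5.41 at day 14. It fell 4.3-fold at day 1 and 6.86-fold at day 7 (log2 -2.78 ± 0.11), with no overlap with control. At day 3, where all libraries lay just under control, the value was small (-0.23 ± 0.092, adjusted p = 0.025), did not pass without control replicate 1 (-0.19) or day 3 replicate 3 (-0.19), and was 0.15 with library totals alone. Kcnc4, Kv3.4, was at 50.2, 48.1, 47.6 and 47.6 CPM in control, 73.8, 72.4, 73.2 and 69.5 at day 1 and 53.1, 49.5, 49.9 and 54.7 at day 3. Later, Kcnc4 stood at 60, 55.3, 60 and 59.8 CPM at day 5, 34, 34.9, 32.7 and 35.2 at day 7 and 25.8, 23.8, 24.8 and 24.4 at day 14. It was above control at days 1 and 5 (log2 0.58 ± 0.044 and 0.28 ± 0.045), overlapped it at day 3 and lay below it at days 7 and 14 (-0.5 ± 0.047 and -0.97 ± 0.05), although the day 7 value was 0.27 (adjusted p = 1.3e-06) with library totals alone. That scaling also gave Kcnc4 a rise at day 3 (0.47, adjusted p = 6.9e-13). Kcnc2 was lower at every day (log2 -1.61 ± 0.44 at day 1), at group means of no more than 1.27 CPM, and at day 14 (-0.94 ± 0.41) did not pass without control replicate 1 (-0.69) or 3 (-0.93) or day 14 replicate 1 (-0.96), 2 (-0.84) or 3 (-0.85). Library totals alone ended the Kcnc2 calls of days 5, 7 and 14 (-0.82, -0.51 and -0.23).

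Kcng4, a silent subunit that forms channels only together with pore subunits of another family, fell on every day but day 3. Its levels were 7.02, 5.58, 6.11 and 7.65 CPM in control, 2.4, 2.99, 2.09 and 2.53 at day 1 and 7.08, 5.89, 8.85 and 6.54 at day 3. Later, Kcng4 stood at 0.762, 1.34, 0.331 and 1.08 CPM at day 5, 0.337, 0.283, 0.612 and 0.466 at day 7 and 1.17, 1.93, 1.5 and 1.57 at day 14. Day 3 overlapped control (log2 0.1 ± 0.18, adjusted p = 0.63, or 0.48, adjusted p = 0.018, with library totals alone) and all other days lay below it, by 15.4-fold at day 7 (-3.95 ± 0.26). Kcnf1, another silent subunit, fell at every day, most at day 1 (log2 -2.34 ± 0.17). With library totals alone Kcnf1 did not pass at day 5 (-0.04, adjusted p = 0.79), day 7 (-0.29, adjusted p = 0.072) or day 14 (-0.2, adjusted p = 0.21). Among the Kcnh genes, Kcnh2, the heart repolarisation channel ERG1, rose at days 1, 7 and 14 (log2 0.86 ± 0.28, 0.94 ± 0.28 and 0.7 ± 0.28), and the day 14 call ended without control replicate 1 (0.56) or 2 (0.62) or day 14 replicate 2 (0.59) or 4 (0.58). Kcnh1 rose at day 14 (log2 1.74 ± 0.49), or by 2.42 without control replicate 2. With library totals alone Kcnh2 rose at day 5 too (1.1), and Kcnh1 at days 1 and 7 (1.48 and 1.67).

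**Figure D4:**
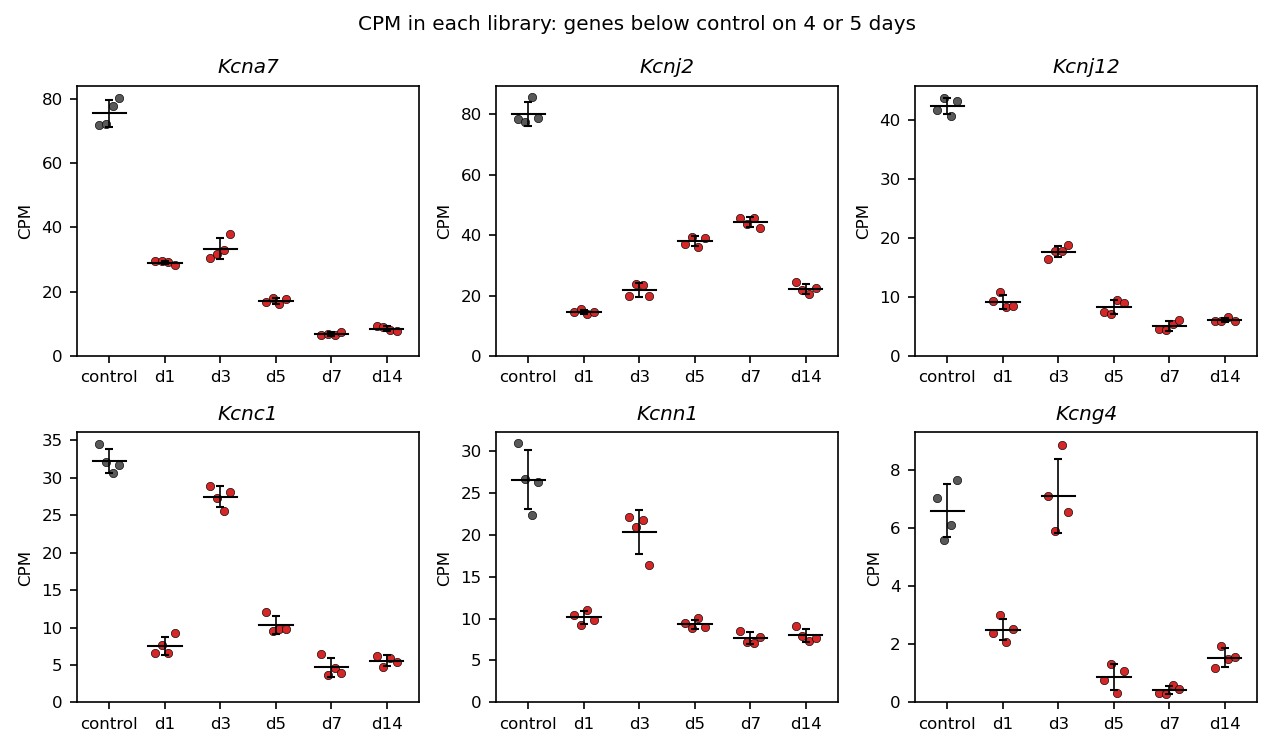
CPM of 6 genes in each of the 24 libraries (points, 4 per group), with the mean (line) and SD (bar). Kcna7, Kcnj2 and Kcnj12 lie below control at every day, Kcnc1 and Kcnn1 approach it at day 3, and Kcng4 overlaps it at day 3.

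Accessory subunits of voltage-gated channels included 2 of the 3 genes above control at every day. Kcnab2, the cytoplasmic beta subunit Kvbeta2, was at 5.14, 3.42, 3.21 and 2.86 CPM in control, 17.5, 17.4, 18.4 and 19.1 at day 1 and 14.2, 13.4, 12.7 and 13.6 at day 3. Later, Kcnab2 stood at 15.6, 18.2, 15.6 and 14.1 CPM at day 5, 17.1, 14.3, 14.9 and 15.1 at day 7 and 7.32, 7.92, 4.58 and 6.65 at day 14. Libraries of days 1 to 7 lay above all control libraries and day 14 overlapped them at 1 library. The rise was 4.95-fold at day 1 (log2 2.31 ± 0.13) and 1.81-fold at day 14 (0.86 ± 0.15, adjusted p = 3.3e-06). Its relative Kcnab1 fell at every day (log2 -1.41 ± 0.2 at day 1 and -0.94 ± 0.19 at day 14). Library totals alone ended the Kcnab1 calls of days 5 and 14 (-0.39 and -0.22). Kcne4, a small membrane subunit that restrains Kv1 and Kv7 channels, rose most at day 3 (log2 1.24 ± 0.14), and its day 14 call (0.33 ± 0.14) ended without control replicate 2 (0.22) or 4 (0.29) or day 14 replicate 2 (0.33), 3 (0.33) or 4 (0.31).

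Kcne5, of the same family, had 11.1, 11.2, 11.9 and 12.6 CPM in control, 3.32, 4.93, 4.13 and 3.88 at day 1 and 5.14, 5.24, 5.03 and 5.91 at day 3. Later, Kcne5 stood at 3.32, 2.14, 2.21 and 2.57 CPM at day 5, 9.24, 9.61, 9.13 and 9.37 at day 7 and 8.64, 8.53, 9.36 and 8.76 at day 14. All days lay below control. The fall was deepest at day 5 (log2 -2.19 ± 0.13) and shallow at days 7 and 14 (-0.33 ± 0.11 and -0.41 ± 0.11), where library totals alone gave 0.44 (adjusted p = 0.00029) and 0.31 (adjusted p = 0.0089). Kcnip3, a calcium-binding partner of Kv4 channels, fell at days 1, 3 and 7 (log2 -1.39 ± 0.36 at day 3), and its day 1 and day 7 calls ended without control replicate 2 (-0.67 and -0.78) and with library totals alone (-0.29 and -0.21).

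Inward rectifiers included 3 of the 4 members with the highest mean TPM in control, Kcnj11, Kcnj12 (21.8 TPM) and Kcnj2 (17.6 TPM). Kcnj11, the pore subunit Kir6.2 of the ATP-sensitive channel (ENSMUSG00000096146, chromosome 7, 46093953 to 46100764, minus strand), had the highest TPM of all members in control (45) and at days 1, 3, 5 and 7, and at day 14 (28.5) came just behind Kcnn3 (29.1), a gap that was not tested. In CPM it was at 109, 115, 111 and 116 in control, 106, 105, 107 and 107 at day 1 and 139, 124, 145 and 148 at day 3. Later, Kcnj11 stood at 94.5, 87.6, 93.9 and 100 CPM at day 5, 48.4, 49, 49 and 55.2 at day 7 and 42.3, 41.1, 39.4 and 47.2 at day 14. All day 3 libraries lay above control and all libraries of the other days below it, those of day 1 narrowly. It rose at day 3 (log2 0.3 ± 0.046), did not pass at day 1 (-0.09 ± 0.046, adjusted p = 0.088) and fell at days 5, 7 and 14 (-0.26 ± 0.047, -1.16 ± 0.05 and -1.41 ± 0.051). Its early direction turned with the scaling: with library totals alone day 1 stood at 0.49 (adjusted p = 3e-13) and day 5 at 0.38 (adjusted p = 5.1e-10), and TPM, a share of all transcripts, went from 45 in control to 64.8 at day 1.

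Kcnj2, the strong inward rectifier Kir2.1 that holds the resting voltage (ENSMUSG00000041695, chromosome 11, 111066164 to 111076821, plus strand), fell at once and came part of the way back. Its libraries held 78.3, 77.4, 85.8 and 78.9 CPM in control, 14.4, 15.6, 13.8 and 14.4 at day 1 and 19.9, 23.9, 23.6 and 19.9 at day 3. Later, Kcnj2 stood at 37.2, 39.5, 36.1 and 39.2 CPM at day 5, 45.7, 43.7, 45.6 and 42.3 at day 7 and 24.3, 22, 20.4 and 22.4 at day 14. No library of any day reached control. The fall was 5.5-fold at day 1 (log2 -2.46 ± 0.061, adjusted p = 9.2e-35) and 1.81-fold at day 7 (-0.85 ± 0.053). The day 7 value was -0.09 (adjusted p = 0.12) with library totals alone. Kcnj2 TPM was 17.6 ± 0.82 in control and 17.5 ± 0.68 at day 7 (SD, n = 4), with overlapping libraries. It rose at each step from day 1 to day 7 (0.59 ± 0.069, 0.8 ± 0.061 and 0.22 ± 0.055) and fell again from day 7 to day 14 (-0.99 ± 0.058).

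Kcnj12, the related strong rectifier Kir2.2 (ENSMUSG00000042529, chromosome 11, 61022564 to 61071131, plus strand), kept falling to day 7 after a smaller difference at day 3. It was at 41.7, 43.8, 40.7 and 43.3 CPM in control, 9.28, 10.8, 8.21 and 8.41 at day 1 and 16.5, 17.7, 17.8 and 18.7 at day 3. Later, Kcnj12 stood at 7.51, 7.05, 9.54 and 8.94 CPM at day 5, 4.52, 4.38, 5.35 and 6.16 at day 7 and 5.88, 5.94, 6.56 and 5.95 at day 14. All days lay far below control, day 3 the least. The fall was 2.39-fold at day 3 and 8.32-fold at day 7 (log2 -3.06 ± 0.096, adjusted p = 7.3e-31). The summed TPM of the 14 inward rectifiers was 85.2 ± 4 in control and 43.4 ± 1.4 at day 14, and Kcnj11 held 52.7 ± 1.4% of it in control and 81.5 ± 1.6% at day 1.

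The other tested rectifiers were rare. Kcnj16, which joins Kir4.1 in kidney and glia, held 5 counts over the control group, 84 at day 1, 0 at day 3, 219 at day 5, 3 at day 7 and 4 at day 14, and rose at days 1 and 5 (log2 3.29 ± 0.61 and 4.73 ± 0.54). Only libraries of days 1 and 5 held enough counts to carry Kcnj16 past the filter. Its rises at those days were therefore fixed in part by that selection. Kcnj10, Kir4.1 itself, a channel of glia, held 17 counts in control, 68 at day 1, 10 at day 3, 102 at day 5, 14 at day 7 and 16 at day 14; it rose at day 5 (log2 1.93 ± 0.46) and at day 1 (1.28 ± 0.49), and the day 1 call ended without day 1 replicate 1 (1.1). Kcnj10 too needed the libraries of days 1 and 5 to pass the filter, so its rises there were fixed in part by that selection. Days 1 and 5, where Kcnj16 and Kcnj10 were high, are also the groups with the highest sums of lymphocyte markers given above. Repair Schwann cell markers summed to 59.8 to 63.9 TPM in control, with Shh at 0, and to 139 to 143, 107 to 120, 166 to 173, 175 to 188 and 193 to 212 at days 1, 3, 5, 7 and 14, with none of the 6 at 0. Their part in these results was not tested. Kcnj15 rose at day 7 (log2 1.07 ± 0.36, and 1.69 without control replicate 2). Kcnj14 rose at days 1 and 7 (log2 2.19 ± 0.7 at both, and 3.28 at both without control replicate 1). Kcnj14 had only 137 counts over the 24 libraries and at most 17 in any library. It passed the filter mainly through days 1 and 7, so these rises were fixed in part by that selection. With library totals alone Kcnj15 also rose at days 1, 5 and 14 (1.25, 1.43 and 0.82). It passed too at day 5 under DESeq2 (0.8) and at days 1 and 5 without control replicate 2 (1.3 and 1.41).

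In the two-pore-domain family, whose members carry leak currents open at rest, Kcnk5, the alkaline-activated channel TASK-2 (ENSMUSG00000023243, chromosome 14, 20140057 to 20181809, minus strand), gave the largest rise of any member at day 5 among those above 1 CPM in control. Its libraries had 4.88, 6.08, 3.86 and 3.95 CPM in control, 14.1, 13.6, 12.3 and 12 at day 1 and 2.94, 3.46, 1.91 and 2.77 at day 3. Later, Kcnk5 stood at 74.7, 77.7, 76.5 and 82 CPM at day 5, 33, 33.9, 32.6 and 31.8 at day 7 and 43.3, 42.2, 40.5 and 38.9 at day 14. Day 3 lay below all control libraries and every other day above. Kcnk5 rose 2.78-fold at day 1 (log2 1.47 ± 0.11), fell at day 3 (-0.74 ± 0.15, adjusted p = 3.3e-05) and rose 16.6-fold at day 5 (4.05 ± 0.088, adjusted p = 3.4e-37) and 8.79-fold at day 14 (3.14 ± 0.094). The step from day 3 to day 5 was log2 4.79 ± 0.09, and from day 5 to day 7 it fell (-1.24 ± 0.059). It held 21.6 ± 2.2% of the summed TPM of the 14 Kcnk genes in control, 38.5 ± 1.9% at day 1, 16.9 ± 3.6% at day 3, 80.5 ± 0.48% at day 5, 61.7 ± 2.8% at day 7 and 67.8 ± 2.5% at day 14.

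Kcnk13, the channel THIK-1 known from microglia, was at 1.03, 1, 1.53 and 1.01 CPM in control, 3.97, 3.77, 3.21 and 4.26 at day 1 and 2, 2.38, 2.55 and 2.08 at day 3. Later, Kcnk13 stood at 4.74, 4.11, 4.47 and 5.14 CPM at day 5, 3.37, 2.73, 3.52 and 2.9 at day 7 and 3.55, 3.54, 3.04 and 2.92 at day 14. All libraries of all days lay above all control libraries, by log2 2.01 ± 0.2 at day 5 and 0.97 ± 0.22 at day 3. Kcnk6, TWIK-2, a channel of macrophages and vessels, was at 6.08, 7.25, 6.67 and 6.05 CPM in control, 11.2, 10.5, 9.34 and 10.8 at day 1 and 6.51, 6.59, 8.78 and 7.17 at day 3. Later, Kcnk6 stood at 10.9, 12, 12 and 12.8 CPM at day 5, 8.09, 8.2, 8.62 and 9.73 at day 7 and 6.89, 8.48, 7.48 and 6.82 at day 14. It rose at days 1, 5 and 7 (log2 0.68 ± 0.11, 0.87 ± 0.11 and 0.41 ± 0.12), without overlap with control, and did not pass at days 3 and 14, which overlapped it. With library totals alone Kcnk6 rose at those days too (0.53, adjusted p = 0.00014, and 0.91, adjusted p = 2e-09). All 6 macrophage markers rose at every day, none at 0 in any group, and their summed level was 77.4 to 85.8 TPM in control, 371 to 382 at day 1, 264 to 294 at day 3, 384 to 407 at day 5, 427 to 438 at day 7 and 207 to 239 at day 14. Their part in the Kcnk13 and Kcnk6 values was not tested.

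Kcnk3, the acid-sensitive channel TASK-1, rose at days 1 and 7 (log2 1.44 ± 0.22 and 1.67 ± 0.22) and fell at day 5 (-0.95 ± 0.28), the latter not passing without control replicate 2 (-0.61) or with library totals alone (-0.31). That scaling gave Kcnk3 a rise at day 14 too (1.21). Kcnk2, the stretch-sensitive channel TREK-1, fell at days 1, 3 and 5 (log2 -0.55 ± 0.2, -1.71 ± 0.23 and -0.75 ± 0.2) and rose at day 14 (0.74 ± 0.18). The day 1 call of Kcnk2 ended without control replicate 4 (-0.44) or day 1 replicate 1 (-0.44), and library totals alone gave 0.03 at day 1, -0.1 (adjusted p = 0.64) at day 5 and 0.75 (adjusted p = 0.00036) at day 7, where TMM gave -0.02 ± 0.19. Kcnk1, TWIK-1, fell at every day, most at day 5 (log2 -2.97 ± 0.41), and its day 7 value (-2.26 ± 0.37) was -2.88 without day 7 replicate 3.

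**Figure D5:**
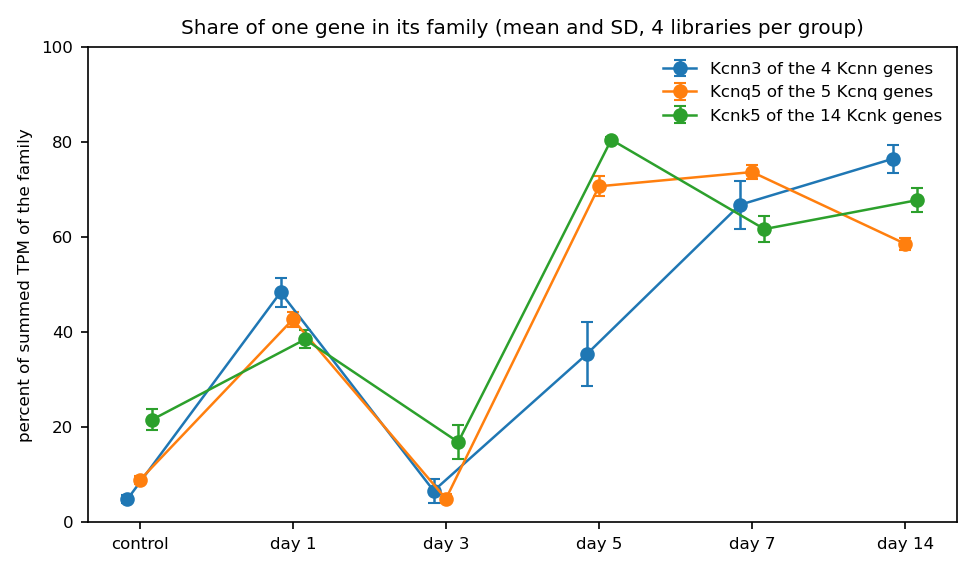
Share of Kcnn3, Kcnq5 and Kcnk5 in the summed TPM of their own gene family in each group (points, mean of 4 libraries; bars, SD). All 3 mean shares are higher than in control at day 1; at day 3 those of Kcnq5 and Kcnk5 lie below their control means and that of Kcnn3 (6.65%) above its own (4.91%), with overlapping libraries. From day 5 on the means lie between 35.4% and 80.5%.

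Kcnn3, Kcnq5 and Kcnk5 shared a course that was high at days 1, 5, 7 and 14 and at or below control at day 3. Of the 5 denervated fibre markers (Chrng, Chrna1, Myog, Musk and Ncam1), 3 rose at day 3, 1 fell and 1 did not pass. They summed to 32.3 to 35.9 TPM in control, 437 to 459 at day 1, 181 to 204 at day 3 and 378 to 393 at day 5. Chrng and Ncam1 were low at day 3. Chrng, the fetal acetylcholine receptor subunit, stood at 0.374 ± 0.175 CPM in control, 44.4 ± 3.09 at day 1, 0.563 ± 0.0976 at day 3, 13.8 ± 1.19 at day 5, 66.5 ± 1.4 at day 7 and 291 ± 5.38 at day 14 (SD, n = 4). Ncam1, the neural cell adhesion molecule, went from 12.5 ± 0.614 CPM in control to 61.5 ± 2.57 at day 1, 6.81 ± 1.13 at day 3 and 71.5 ± 2.95 at day 5. Myog and Musk, in contrast, were high at day 3 too, at 132 ± 6.72 CPM against 19.8 ± 1.82 for Myog and 68.9 ± 1.82 against 8.93 ± 0.634 for Musk. What sets the day 3 libraries apart was not tested. Without the 4 day 3 libraries in the fit, an alternative chosen after the data were seen, the members changed at days 1, 5, 7 and 14 numbered 41, 37, 37 and 36. Of all 14185 genes tested in that fit, 10575, 10585, 10943 and 10596 changed.

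Between neighbouring times, 37 members changed from day 1 to day 3 (74.1% of all genes), 14 higher (36.1%) and 23 lower (38%). From day 3 to day 5, 35 changed (77.3%), 22 higher (38.2%) and 13 lower (39.2%). From day 5 to day 7, 32 changed (68.2%), 8 higher (33.8%) and 24 lower (34.4%). From day 7 to day 14, 18 changed (51.6%), 9 higher (26%) and 9 lower (25.6%). In that last step the rises included Kcng4 (log2 1.86 ± 0.31) and Kcna5 (0.76 ± 0.11), and the falls included Kcnab2 (-1.21 ± 0.11), Kcnk3 (-1.18 ± 0.19) and Kcnj2 (-0.99 ± 0.058).

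Of 28 other genes of potassium handling, 25 were tested: 9 rose and 13 fell at day 1 (38.1% and 36.2% of all genes), 6 and 12 at day 3 (34.5% and 35.7%), 9 and 14 at day 5 (38.5% and 35.8%), 8 and 13 at day 7 (40.2% and 36.7%), and 8 and 12 at day 14 (39.2% and 35.3%). Their median log2 lay between -0.61 and -0.13, where all genes lay between -0.03 and 0.06. Abcc9, the sulfonylurea receptor that pairs with Kir6.2 in muscle, fell from 303 ± 5.16 CPM in control to 188 ± 2.95 at day 3 and rose to 347 ± 7.02 at day 14. Abcc8, the neuronal and beta cell receptor, rose at days 1 and 5 (log2 1.43 ± 0.12 and 1.48 ± 0.12). Atp1b2, a subunit of the sodium-potassium pump, which returns potassium to the fibre, fell at every day, most at day 5 (-2.9 ± 0.036). Lrrc38, a gamma subunit of BK channels, fell at days 1, 5, 7 and 14 (-2.75 ± 0.17 at day 7), and Dpp6, a partner of Kv4 channels, at every day (-2.44 ± 0.3 at day 3). Hcn4, a pacemaker channel that also passes potassium, rose at every day (1.69 ± 0.16 at day 14).

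The 41 members with counts that were not tested had at most 25 counts in any library. Beside Kcna3, the fullest were Kcnab3 (146 counts over the 24 libraries), Kcng1 (135), Kcnh7 (117) and Kcnip4 (109), and Kcnk9, Kcnk15 and Kcnk18 had 1 count each. These 41 did not pass the filter and were not tested in the fit reported here. With no filter, 92 members were tested, and 45, 36, 41, 44 and 36 of them changed at days 1, 3, 5, 7 and 14. Of all 18266 genes tested without a filter, 10933, 10142, 10965, 11263 and 10867 changed at these days. Of the 184 calls against control, 27 ended in at least 1 of the 24 fits that left out 1 library. Among those not yet given, Kcns3 at day 1 (log2 0.67 ± 0.3) did not pass without control replicate 2 (0.44) or 4 (0.53) or day 1 replicate 1 (0.63) or 4 (0.58). Kcng2 at day 1 (-1.38 ± 0.6) did not pass without control replicate 2 (-1.36) or 4 (-0.84) or day 1 replicate 1, 2 (-1.34) or 3 (-1.4), nor with library totals alone (-0.81). Kcnj16 at day 3, with 0 counts against 5 in control, was 2.29-fold lower with the 0 set to 3 counts over the group. That value takes the 5 control counts as exact and is no lower bound. The Kcnj16 call passed no longer without control replicate 3 or 4. Kcnh1 at day 3 (1.24 ± 0.53) did not pass without control replicate 1 (0.85) or 3 (1.06) or day 3 replicate 2 (1.11) or 3 (1.01), nor at day 5 (1.37 ± 0.51) without control replicate 1 (0.98) or 3 (1.19), and both were larger without control replicate 2 (1.92 and 2.05). The Kcnt1 value of day 3 (-2.04 ± 0.69) was lost without control replicate 4 (-1.58), and that of day 14 (-1.45 ± 0.61) without control replicate 3 (-1.42) or 4 (-0.99) or day 14 replicate 1 (-1.3) or 4 (-1.44), or with library totals alone (-0.75). Kcne3 at day 5 (-1.02 ± 0.47) was lost in 15 of the fits, namely those without control replicate 2 (-0.74) or 3, any library of day 1 or day 3, day 5 replicate 1, 3 or 4, day 7 replicate 3 or day 14 replicate 2, and with library totals alone (-0.38). Kcnd1 at day 7 (0.66 ± 0.3) was lost without control replicate 3 (0.45) or 4 (0.52) or day 7 replicate 3 (0.58) or 4 (0.49). With library totals alone Kcnd1 also rose at days 1, 5 and 14 (1.11, 0.78 and 1.13). Kcnmb1 at day 14 was lost without control replicate 1 (-0.6) or 4 (-0.73) or day 14 replicate 1 (-0.71), 3 (-0.67) or 4 (-0.61).

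Reads from genes that share exon bases could not be separated with certainty, since the strand setting is unknown here. The tested members Kcna6, Kcnab1, Kcnd3, Kcne3, Kcng2, Kcnj15, Kcnk1, Kcnk2, Kcnk3, Kcnma1, Kcnmb4, Kcnn1, Kcnn2, Kcnq1, Kcnq5 and Kcnt2 share bases with a gene on the opposite strand in GENCODE M21, and Kcnab2 with Gm16334 on its own strand. Their values are uncertain to that extent. Kcnn3, Kcnk5, Kcna7, Kcnj2, Kcnj11, Kcnj12, Kcnc1 and Kcng4 share none.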

How the data were processed

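PolyA-selected RNA of mouse gastrocnemius was sequenced in 24 libraries, 4 in each of 6 groups. Per the file headers the authors deposited, for each gene and library, an expected count and a TPM value. The aligner, the counter, the genome build and the strand setting are not given in the sources used. Expected counts (7.01% were not whole) were rounded, and genes were kept with the default of filterByExpr. All 24 libraries were fitted together with edgeR 4.0.16 (R 4.3.3) under TMM scaling, and 9 contrasts and an omnibus test were made with the quasi-likelihood test and Benjamini-Hochberg adjustment over all genes tested. The script was tested on simulated data. Standard errors were derived from the fold change and its F statistic. The deposited TPM were used, untested, to compare genes and for shares. Values in every library are given for the 2 members of each of the 5 role groups with the highest mean TPM and the 2 with the largest called fold, for Kcnn3 and other members named in that rule, and for Kcnq5, added after its values were seen. The members and gene lists were chosen with earlier results of these data known. Alternatives were other scalings, DESeq2 1.42.0, other filters, a replicate block, fits of only the 2 groups compared, leaving out each library, and, chosen after the data were seen, a fit without day 3. Coordinates are from GENCODE M21 (GRCm38), which may not be the authors' build; all 93 members matched by Ensembl identifier. Libraries of a group differed beyond sampling noise (chi-square per gene 2.04 to 3.86 over 36 pairs), so none was counted as a copy of another. Some genes that were tested and counted are not reported here by name.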

Additional observations from a re-analysis of the deposited data

Results flagged for a closer look

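In 6 of 114 sets of 4 libraries (19 genes in 6 groups), 1 library lay far from the other 3, and chance alone gives about 1 in 20. These were Kcnc1 in day 5 replicate 1 (12.1 CPM), Kcnc4 in day 5 replicate 2 (55.3 CPM), Kcnj11 in day 7 replicate 4 (55.2 CPM), Kcnj12 in day 14 replicate 3 (6.56 CPM), Kcnk13 in control replicate 3 (1.53 CPM) and Kcnn4 in day 14 replicate 1 (0.795 CPM).

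Neighbouring days whose libraries lay on opposite sides of control, with a tested difference between the days, were found for 4 genes. Kcnk5 differed by a log2 of -2.22 from day 1 to day 3 and 4.79 from day 3 to day 5, and Kcnq5 by -3.38 and 4.88. Kcnj11 differed by 0.39 from day 1 to day 3 and -0.56 from day 3 to day 5, and Kcnc4 by -0.78 from day 5 to day 7.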

How the results depend on the processing

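Scaling by library totals alone changed counts against control by over 1.5 times: 10 members were higher at day 3, and 11, 13 and 11 were lower at days 5, 7 and 14. Of all 14246 genes, the same scaling gave 7823 higher at day 3, and 1680, 1732 and 1670 lower at days 5, 7 and 14. It ended 34 further calls against control, gained 21 and turned 15 directions against control and 2 between days, among them against control Kcnk2 (0.03) and Kcnj11 (0.49) at day 1, Kcnc1 (0.15) at day 3, Kcna2 (0.37), Kcna5 (0.11), Kcnma1 (0.64) and Kcnj11 (0.38) at day 5, Kcnq1 (0.25), Kcnc4 (0.27), Kcnk2 (0.75) and Kcne5 (0.44) at day 7, Kcne5 (0.31) at day 14, and between days Kcna7 (-0.01, day 1 to day 3) and Kcna5 (0.2, day 3 to day 5). The all-gene median moves with this scaling by construction. No direction turned under DESeq2 size factors, DESeq2, the 2 other filters, fits of only the 2 groups compared, the replicate block, the fits without 1 library or the fit without day 3.

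Leaving out each library in turn gave 39 to 43, 31 to 35, 36 to 39, 35 to 41 and 31 to 38 members changed at days 1, 3, 5, 7 and 14. Replicate numbers were not taken as pairs: of 60 pairs with the same number, 5 had a correlation of deviations over 0.1 (range -0.0945 to 0.183). Of the 24 libraries, 12 correlated best with their own number, where equal odds give 6, a hint from the data and not from the design. With the replicate block 42, 33, 37, 36 and 36 members changed at these days, as did 10577, 9972, 10574, 10923 and 10589 of all 14246 genes. Between days, the replicate block gave 37 members from day 1 to 3, 35 from day 3 to 5, 31 from day 5 to 7 and 18 from day 7 to 14, and 47 in the omnibus test. Over all genes the steps between days gave 10520, 11003, 9673 and 7320. Genes of few counts are limited by depth.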
